A study of Rattus norvegicus with 20 samples.

Results

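Vagina epithelial cells that had been placed in mouse skin, recovered from the graft and cultured again were compared with cells recovered in the same way from oral mucosa, oesophagus, foot pad and trachea. The arrays were picked by their sample labels, with no measured value in the rule, although the comparison was proposed with earlier results of these data known. It used the 2 arrays of recovered vagina cells and the 8 arrays of the 4 other recovered tissues, 10 of the 20 arrays of the series, and it was made across 14506 genes. All cells came from Sprague-Dawley rats that constitutively carry EGFP (green rat CZ-004, act-EGFP), with tissue taken on postnatal day 200, and all were grown on irradiated mouse 3T3-J2 feeder fibroblasts. Cells labelled after had been transplanted into newborn mouse skin carried by a nude mouse, recovered and recultured, and cells labelled before had been cultured without this. Before RNA extraction all cells were sorted on EGFP, which leaves mouse cells out but not rat cells of another type. Each group holds 2 cultures grown in parallel, so the p-values measure the spread between duplicates and not that between rats or grafts.

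The lining of the adult vagina is a stratified squamous epithelium, as are those of the oral mucosa, the oesophagus and the foot pad, while the trachea has a pseudostratified airway epithelium. In culture such cells keep a basal state, marked by the transcription factor Tp63 and the keratins Krt5 and Krt14. Epithelia of the body also differ in HOX genes, transcription factors that lie in 4 clusters and whose expression follows the position along the body axis, with the highest-numbered groups used at the posterior end, the limbs and the genital tract. Keratins differ too. Krt13 and Krt4 mark the suprabasal layers of moist mucosa, Krt15 basal cells and Krt19 simple epithelium.

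Values are log2 RMA values, so that 1 unit is 2-fold, and levels of different genes are not on a common scale. Array medians lay between 5.31 and 5.55, the r between duplicates over all probe sets was 0.991 to 0.996 (Pearson), and 40% of the probe sets had a mean under 4.77. The arrays carried the defining markers of stratified epithelium. Krt14, the keratin of basal cells, stood at 13.19 and 13.11 in recovered vagina and between 13.08 and 13.36 in the others, and Tp63 at 9.45 and 9.58 against 9.13 to 10.05. Ptprc, the pan-leukocyte marker, stood at 3.21 and 3.46 and did not pass the test. The titles of the recovered vagina and oral mucosa arrays share a code, RC5, where the other 3 recovered tissues have RC4, and the labels do not explain it. All 17 genes described below as differing from each tissue also passed against oral mucosa, which carries the same code. Passing there was part of the rule that chose them, so it is no separate test of the code. The titles also hold Roman numerals that the labels do not explain, and recovered vagina differs in its numeral from every other recovered tissue, so numeral and tissue cannot be told apart.

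A pair of genes had been proposed as marks of these cells, and the data did not bear this out for either. Aim2, a cytoplasmic sensor of double-stranded DNA, stood at 7.16 and 7.25 in recovered vagina, and at 3.11 to 7.06 with a median of 5.57 on the other 8 arrays. It was higher than the mean of the others by 1.79 ± 0.19 (SE, limma adjusted p 1.43e-05). Both oesophagus arrays stood at 7.06, though, and the difference from oesophagus was 0.14 (limma adjusted p 0.934). Aim2 had been high in vagina cells before transplantation, at 7.75 and 7.70 against 3.0 to 6.48 in the others. Cers4, a ceramide synthase, stood at 8.44 and 8.35 in recovered vagina against 4.46 to 9.33 in the others. It was lower than in oral mucosa, oesophagus and foot pad by 0.35 to 0.86 and higher than in trachea by 3.74. Its difference from the mean of the 4 was 0.52, under 2-fold, and turned to −0.56 without trachea. The cells are therefore described below by their label and by the genes that differed from each of the 4 other tissues.

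Of the 14506 genes, 64 (0.441%) were higher and 156 (1.08%) lower in recovered vagina than in the mean of the 4 others, which means a fold over 2 with a limma adjusted p under 0.05 throughout. The folds ran from 2.0 to 4.78 upward and from 2.0 to 20.8 downward. The groups did not overlap on any array for 39 of the higher and 86 of the lower genes. Over all genes, 6.41% lay above and 5.6% below all 8 other arrays. These calls rest on the spread between duplicates. With each tissue counted as 1 unit, limma called 0 genes higher and 0 lower (166 at an unadjusted p under 0.05, lowest adjusted p 0.189). On that basis Hoxa11 and Hoxd13 had an adjusted p of 0.189, Cpa4 of 0.29 and Myef2 of 0.34.

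How far the difference held against single tissues was asked next. Against oesophagus 49 genes (0.338%) were higher and 93 (0.641%) lower. Against oral mucosa the counts were 239 (1.65%) and 289 (1.99%), against trachea 254 (1.75%) and 348 (2.4%), and against foot pad 490 (3.38%) and 591 (4.07%). Oesophagus thus gave the fewest calls and foot pad the most. Of the 64 genes higher than the mean, 14 also passed against oesophagus and 58 against foot pad, and of the 156 lower genes 41 and 126. All of these comparisons share the 2 recovered vagina arrays. Passing against all tissues but oesophagus was seen for 21 higher and 40 lower genes. Among them were Fst, Aqp9, Fgf13 and Cdc6 upward and Krt15, Mgst1 and Nr4a1 downward.

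**Figure D1:**
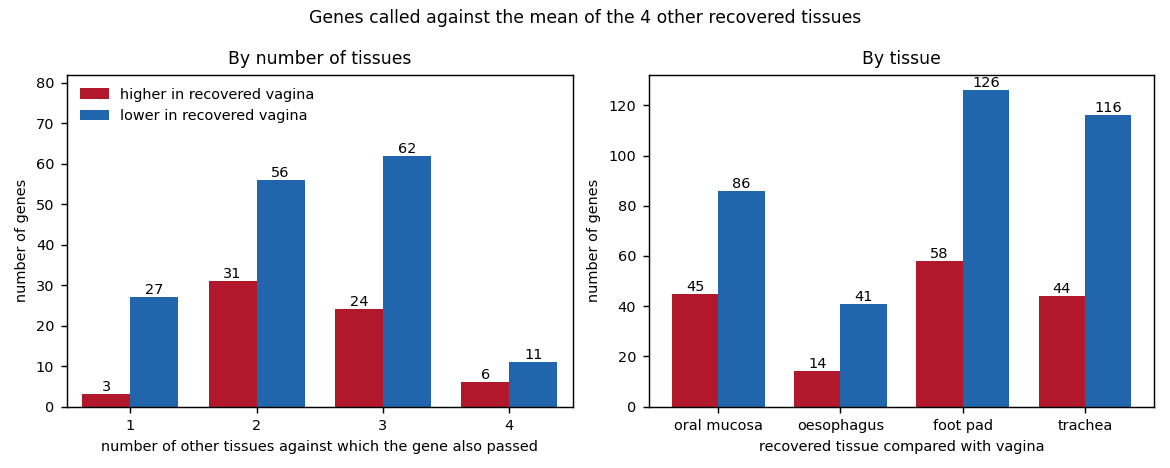
Number of genes higher (red) or lower (blue) in recovered vagina than in the mean of the 4 other recovered tissues, by the number of single tissues against which they also passed (left) and by tissue (right). Against all 4 tissues 6 higher and 11 lower genes passed, and against oesophagus 14 and 41.

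The genes that set recovered vagina cells apart from every other recovered tissue were few. Against each of the 4 tissues separately, 6 genes (0.0414%) were higher and 11 (0.0758%) lower. The higher ones were Khdrbs3, Hoxa11, Cpa4, Hoxd13, Tmem47 and Sh3kbp1. The lower ones were Myef2, Krt13, Sparc, Abcg3l3, Igfbp2, Fads1, Adm2, Dab2, Fads2, Dhrs3 and Tmprss11f. For all 17 the 2 vagina arrays lay outside the range of the other 8, which the rule that picked them makes likely.

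The posterior HOX genes Hoxa11 and Hoxd13 were among the 6. Hoxa11 acts in the development of the uterus and limbs, and Hoxd13 in that of the distal limbs and the external genitalia. Their promoters are shown because both genes stood out in recovered vagina against a lower level in all other groups. The sequences are from RefSeq (assembly GRCr8) and cover 250 bases before the annotated start, chr3:79977827-79978076 on the plus strand for Hoxd13 and chr4:82676802-82677051 on the minus strand for Hoxa11, each 5′ to 3′. Capitals mark the TATA box TATAAA, the CCAAT box CCAAT and the GC box GGGCGG on either strand.
Hoxd13: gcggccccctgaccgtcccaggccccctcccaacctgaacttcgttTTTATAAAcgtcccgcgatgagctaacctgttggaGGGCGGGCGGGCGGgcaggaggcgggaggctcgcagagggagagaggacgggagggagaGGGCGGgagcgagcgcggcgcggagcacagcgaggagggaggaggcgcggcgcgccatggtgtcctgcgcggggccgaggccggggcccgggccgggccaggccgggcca
Hoxa11: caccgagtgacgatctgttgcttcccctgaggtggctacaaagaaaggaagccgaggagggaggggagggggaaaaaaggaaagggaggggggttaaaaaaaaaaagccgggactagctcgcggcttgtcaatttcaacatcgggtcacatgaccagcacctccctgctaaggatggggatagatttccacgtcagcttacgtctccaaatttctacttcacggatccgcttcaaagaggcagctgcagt
The Hoxd13 window holds TATAAA on both strands, which overlap each other, and GGGCGG at 4 places, of which the leading 3 overlap, while the Hoxa11 window holds none of the 3 motifs. Among 33469 promoters of the table, 12.9% hold TATAAA, 34.0% CCAAT and 30.5% GGGCGG in the same window.

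Hoxa11 stood at 6.76 and 6.5 in recovered vagina. On the other 8 recovered arrays it lay between 4.31 and 4.67, with a median of 4.52. The difference was 2.12 ± 0.15 (limma adjusted p 3.75e-07), and it was 1.99 to 2.23 against the single tissues. Before transplantation the vagina arrays read 4.78 and 5.27 and the others 4.24 to 4.83, a difference of 0.52 that is under 2-fold. Hoxd13 stood at 6.60 and 6.55 in recovered vagina against 4.48 to 4.84 in the others, with a median of 4.58. Its difference was 1.98 ± 0.12 (limma adjusted p 1.55e-07). Before transplantation Hoxd13 read 4.69 and 4.80 in vagina, within the 4.28 to 5.02 of the others. Before transplantation Hoxd13 in vagina therefore lay at the level of the other tissues, and Hoxa11 somewhat above their mean. Both genes lay well above the other tissues in recovered vagina.

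Of 16 posterior HOX genes listed, 8 were measured, and Hoxa11 and Hoxd13 were the 2 that passed. Hoxd10 differed by 0.69 and Hoxd9 by 0.30, both under 2-fold, and the other 4 (Hoxb9, Hoxb13, Hoxc9, Hoxc12) by −0.18 to −0.01. The median over the 8 was 0.14, beside −0.02 over all genes. Among 14 measured anterior HOX genes Hoxa5 was higher (1.17 ± 0.20, limma adjusted p 0.000784), at 6.69 and 6.91 against 4.69 to 6.61. Hoxa5 did not differ from oesophagus (0.27) or foot pad (0.54) beyond the test, and its call ended without oral mucosa (0.95) or trachea (0.88). Hoxa7, of the same cluster, differed by 0.84 and was past 2-fold without foot pad.

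The other 4 higher genes are of unlike kinds. Khdrbs3, an RNA-binding protein that regulates splicing, stood at 6.63 and 6.48 in recovered vagina and at 3.76 to 5.05 in the others. Its difference of 2.26 ± 0.15 (limma adjusted p 2.13e-07) was the largest of the 64. Cpa4, a carboxypeptidase, stood at 7.24 and 7.0 against 4.62 to 5.26, a difference of 2.10 ± 0.14. Before transplantation Cpa4 had been highest in foot pad, at 7.35 and 7.43, and low in vagina, at 5.36 and 4.93. Tmem47, a membrane protein of cell junctions, stood at 7.48 and 7.31 against 5.43 to 6.17, a difference of 1.61 ± 0.14. It had been lower in vagina than in the mean of the others before transplantation (−1.12, limma adjusted p 0.000159). Sh3kbp1, an adaptor protein of receptor endocytosis, stood at 5.42 and 5.29 against 3.57 to 4.09, a difference of 1.45 ± 0.11.

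**Figure D2:**
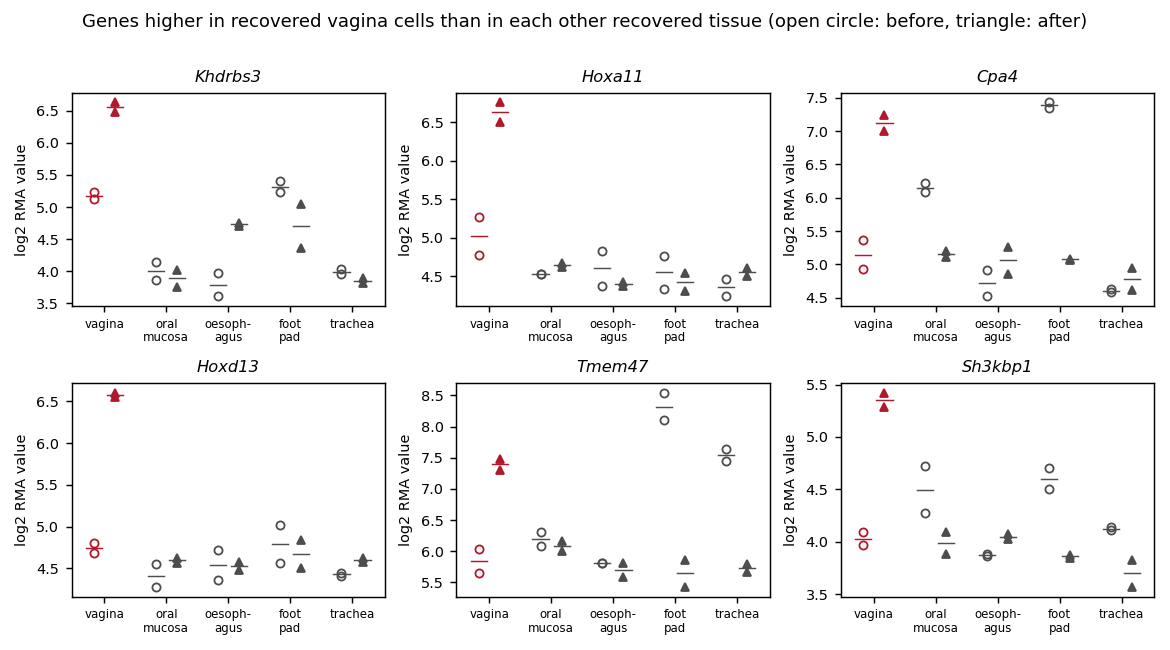
Log2 RMA values of the 6 genes higher in recovered vagina than in each other recovered tissue, by tissue, with open circles for the 2 arrays before, triangles for the 2 arrays after transplantation, short lines for their means and vagina in red. The vagina triangles lie above all other triangles in each panel, and for Cpa4 and Tmem47 the foot pad circles lie higher still.

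Among the lower genes Myef2 differed most. Myef2, a repressor that binds the myelin basic protein promoter, read 3.95 and 4.30 in recovered vagina. On the other recovered arrays it lay between 8.02 and 9.11, with a median of 8.43, and on all 10 arrays before transplantation, vagina included at 8.77 and 8.75, it lay between 8.24 and 9.13. The difference of −4.38 ± 0.08 (limma adjusted p 1.19e-12) is a 20.8-fold lower value on the RMA scale, and recovered vagina was the single group of the series at this low level.

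Krt13 followed. This mucosal keratin read 6.27 and 6.37 in recovered vagina against 8.61 to 10.92 in the others, a difference of −3.50 ± 0.13 (limma adjusted p 3.12e-09). Before transplantation vagina cells had stood at 10.46 and 10.90, already below oral mucosa at 12.99 and 13.08 and oesophagus at 12.28 and 12.18. Trachea had read 9.98 and 9.81, and foot pad, whose skin is keratinized, had been low at 6.5 and 6.3. After transplantation the order of vagina and foot pad was thus turned, with foot pad at 8.61 and 9.15 above vagina. Sparc, a matrix glycoprotein of fibroblasts and basal keratinocytes, read 6.41 and 6.73 against 7.63 to 10.41 (−2.61 ± 0.10), with oesophagus nearest to vagina. Igfbp2, a secreted binding protein for insulin-like growth factors, read 7.88 and 7.75 against 9.31 to 10.37 (−2.09 ± 0.10). Abcg3l3, a transporter family member with close relatives in the rat genome that may share probes, read 4.05 and 4.07 against 6.05 to 6.93 (−2.33 ± 0.13).

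The fatty acid desaturases Fads1 and Fads2, which make long polyunsaturated fatty acids and are neighbors on chromosome 1, were both lower. Their promoters, 250 bases before the start in GRCr8, are shown because the genes moved together. Fads2 lies at chr1:216172034-216172283 on the minus strand and Fads1 at chr1:216252442-216252691 on the plus strand, and capitals mark the same motifs.
Fads2: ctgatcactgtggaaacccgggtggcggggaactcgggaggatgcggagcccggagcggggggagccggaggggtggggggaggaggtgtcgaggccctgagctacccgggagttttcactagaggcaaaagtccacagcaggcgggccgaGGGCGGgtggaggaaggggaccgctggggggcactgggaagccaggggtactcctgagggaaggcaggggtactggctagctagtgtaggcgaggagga
Fads1: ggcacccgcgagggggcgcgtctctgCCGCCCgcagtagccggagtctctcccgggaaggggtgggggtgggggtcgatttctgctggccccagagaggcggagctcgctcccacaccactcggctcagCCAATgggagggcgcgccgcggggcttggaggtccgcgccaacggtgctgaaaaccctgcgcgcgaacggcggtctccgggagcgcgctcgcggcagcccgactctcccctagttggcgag
The Fads2 window holds GGGCGG at 1 place, and the Fads1 window holds CCAAT and, on the other strand, GGGCGG, at 1 place each. Fads1 read 7.53 and 7.49 in recovered vagina against 8.9 to 10.0 (−1.97 ± 0.09, limma adjusted p 1.66e-08). Fads2 read 9.51 on both arrays against 10.75 to 11.27 (−1.51 ± 0.06, limma adjusted p 7.78e-09). Before transplantation vagina cells had stood at the top of the range for both, at 10.40 and 10.55 for Fads1 and 11.60 and 11.63 for Fads2, and foot pad had been the low tissue. Other genes of fatty acid synthesis, chosen after their values were seen, were under 2-fold. Fads3, of the same family, differed by 0.35, the elongases Elovl5 and Elovl6 by −0.44 and 0.70, and Fasn, the fatty acid synthase, by 0.08.

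The remaining 4 were Adm2, Dab2, Dhrs3 and Tmprss11f. Adm2, a peptide hormone of the calcitonin family, read 5.75 and 5.61 against 6.78 to 8.25 (−1.73 ± 0.09). Dab2, an endocytic adaptor, read 6.29 and 6.39 against 7.58 to 8.63 (−1.69 ± 0.10). Dhrs3, which reduces retinal to retinol, read 6.44 and 6.40 against 7.54 to 8.57 (−1.5 ± 0.09). Tmprss11f, a membrane serine protease of squamous epithelium, read 3.46 and 3.5 against 4.38 to 5.16 (−1.22 ± 0.14), which is among the lowest levels on the arrays, so the size of its difference is uncertain. The same holds for the other genes of the 17 of which 1 side lies under 4.77, namely Myef2 and Abcg3l3 in vagina and Khdrbs3, Hoxa11, Hoxd13 and Sh3kbp1 in the median of the others.

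**Figure D3:**
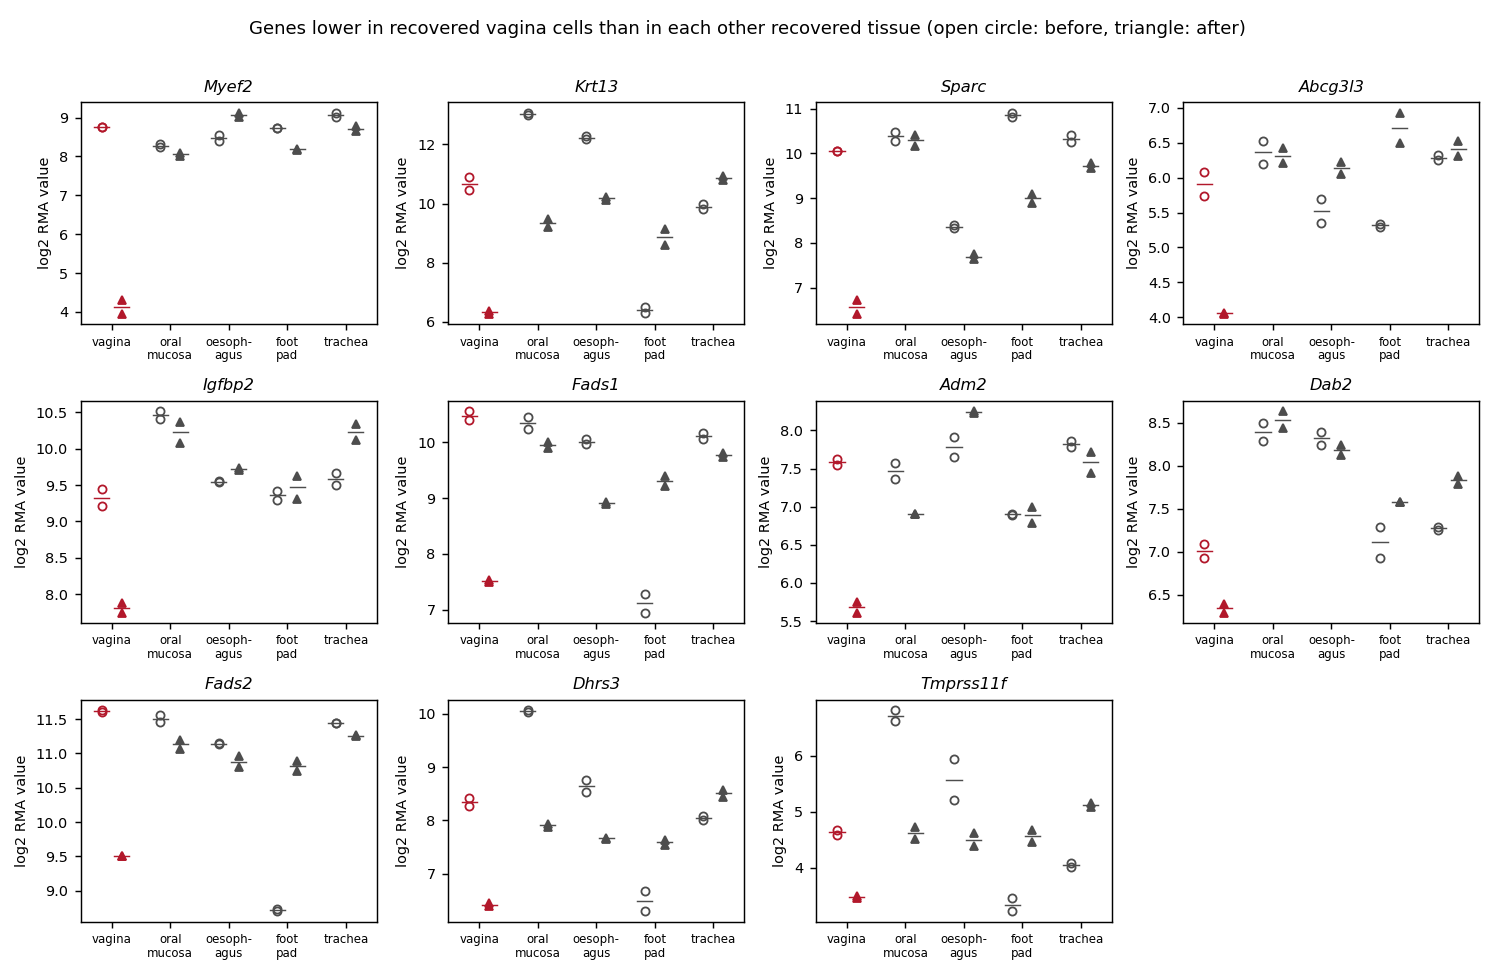
Log2 RMA values of the 11 genes lower in recovered vagina than in each other recovered tissue, by tissue, with open circles for the 2 arrays before, triangles for the 2 arrays after transplantation, short lines for their means and vagina in red. The vagina triangles lie below all other triangles in each panel, while the vagina circles lie within the range of the other circles or at its edge.

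Whether vagina cells already differed in these genes before transplantation was tested on the arrays before, which are not the arrays compared above. There 105 genes (0.724%) were higher and 39 (0.269%) lower in vagina than in the mean of the other 4 tissues. After median centering of every array the split was 126 and 25. Of the 64 genes higher in recovered vagina, 6 had been higher before (9.38% of the later and 5.71% of the earlier list), 2 lower and 56 neither. Of the 156 lower genes, 10 had been lower before (6.41% of the later and 25.6% of the earlier list), 13 higher and 133 neither. Across genes the differences before and after had a Pearson's r of 0.21, as a description, since genes are not independent replicates. Of the 17 genes that differed from each recovered tissue, none had been called in the same direction before, and Tmem47 (−1.12) and Fads1 (1.08) had been called in the opposite one. Differences of the same sign at under 2-fold and an adjusted p under 0.05 were seen for Khdrbs3 (0.91), Hoxa11 (0.52), Dab2 (−0.76) and Igfbp2 (−0.41). Krt13 was near the mean of the others before (0.29), though below oral mucosa and oesophagus and above trachea and foot pad.

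**Figure D4:**
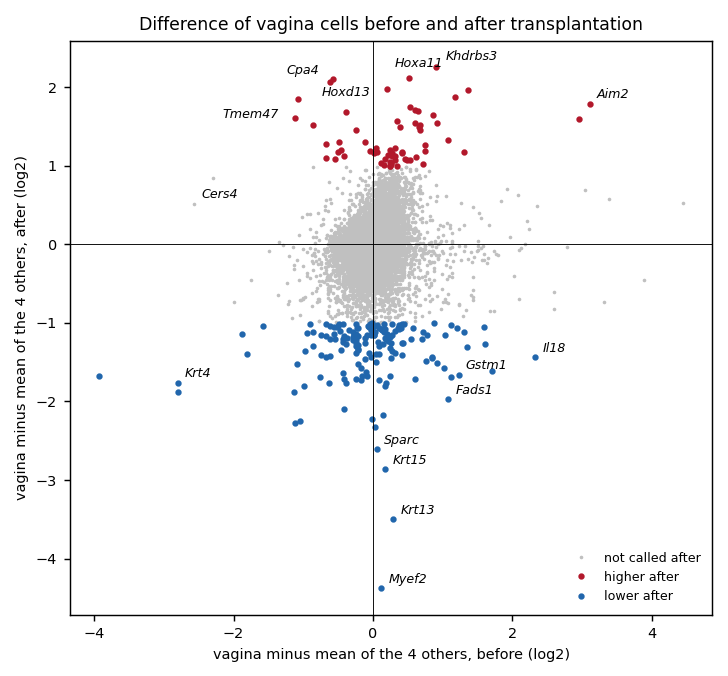
Difference between vagina and the mean of the 4 other tissues for 14506 genes, before (horizontal axis, log2) and after transplantation (vertical axis, log2), with genes called higher after in red and lower after in blue. Hoxd13, Myef2, Krt13, Krt15 and Sparc lie near 0 on the horizontal axis and Hoxa11 somewhat to the right of it, and Aim2 lies at 3.11 before and 1.79 after.

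The change of vagina cells (after minus before) was then set against the mean change of the other 4 tissues, in which 62 genes (0.427%) were higher and 290 (2.0%) lower. This comparison shares the recovered arrays with the first, so it is no separate support, and the values stand side by side. For Myef2 the difference of change was −4.50 ± 0.12, for Krt13 −3.79 ± 0.19, for Fads1 −3.05 ± 0.13 and for Sparc −2.67 ± 0.14. Upward it was 2.73 ± 0.20 for Tmem47, 2.68 ± 0.19 for Cpa4, 1.77 ± 0.17 for Hoxd13 and 1.61 ± 0.21 for Hoxa11. For Dab2 and Tmprss11f it was −0.93 each, under 2-fold. For Cers4 it was 3.08 ± 0.13, as vagina cells read 4.81 and 4.89 before transplantation, and for Aim2 it was −1.32 ± 0.26. The 4 other tissues did not move alike. Krt13 also fell in oral mucosa (mean 13.04 to 9.34) and oesophagus (12.23 to 10.18). It rose in foot pad (6.4 to 8.88) and trachea (9.9 to 10.86). Fads1 rose in foot pad (7.12 to 9.3) and fell in oral mucosa, oesophagus and trachea, by less than in vagina (10.47 to 7.51).

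Of 14 measured mucosal differentiation genes 5 were lower and none higher, with a median of −0.68. Over all genes 1.08% were lower and the median was −0.02, which holds for the lists below too. Krt13 was lower than in each tissue. Krt4, its partner keratin, read 4.72 and 4.80, as low as foot pad at 4.82 and 4.70, and was lower through oesophagus and trachea (−1.76 ± 0.14, −0.90 without trachea, which ended the call). Mal, a membrane protein of apical transport, followed the same pattern (−1.38 ± 0.16, −0.80 without trachea). Tmprss11b, a membrane protease, read 8.19 and 8.22 against 8.99 to 9.99 (−1.31 ± 0.08), and Upk1b, a uroplakin, 4.76 and 4.89 against 4.90 to 7.77 (−1.27 ± 0.12). Upk1b, named here to complete the count, was at −0.76 without trachea, which ended the call. Without foot pad 6 members were lower, Sprr3 being added, and the median was −0.44. Before transplantation Krt4 had been lower in vagina than in the mean of the others (−2.8), and Tmprss11b (1.35) and Upk1b (1.61) higher. The difference of change was 1.04 for Krt4, against −2.66 for Tmprss11b and −2.88 for Upk1b.

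Of 21 simple epithelium genes 3 were lower and none higher (median −0.30), all 3 high in trachea. Krt19 read 4.92 and 5.12 in recovered vagina, near oral mucosa and oesophagus at 5.08 to 5.5, while foot pad read 6.98 and 7.53 and trachea 8.95 and 9.03 (−1.69 ± 0.13). Elf3, an epithelial ETS transcription factor, read 6.54 and 6.19 against 6.51 to 9.81 (−1.57 ± 0.12). The tetraspanin Tspan8 ran from 3.80 in oral mucosa to 11.83 in trachea, with vagina at 6.22 and 6.06 (−1.43 ± 0.15). Without trachea the differences were −0.94, −0.95 and −0.01 and all 3 calls ended, and that of Tspan8 also ended without oesophagus (−0.91). Against oral mucosa alone Tspan8 was higher, by 2.05. Before transplantation 5 of the 21 had been higher in vagina and none lower, Krt19 (1.12) and Elf3 (1.02) among them. In the comparison of change 6 of the 21 were lower and none higher. Without foot pad Krt8 was lower too in recovered vagina. Among 15 basal layer genes Krt15 was the one that passed, at 6.04 and 5.84 against 6.59 to 10.95 (−2.86 ± 0.11, limma adjusted p 3.12e-09), and oesophagus at 6.59 and 6.61 was close (−0.66). None of 14 epidermal cornification and none of 15 hair follicle genes passed, with medians of −0.10 and −0.02. Without foot pad Gata3, of the hair follicle list, was higher. In the comparison of change 2 members of each of these 2 lists were higher and none lower, beside 0.427% higher over all genes.

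**Figure D5:**
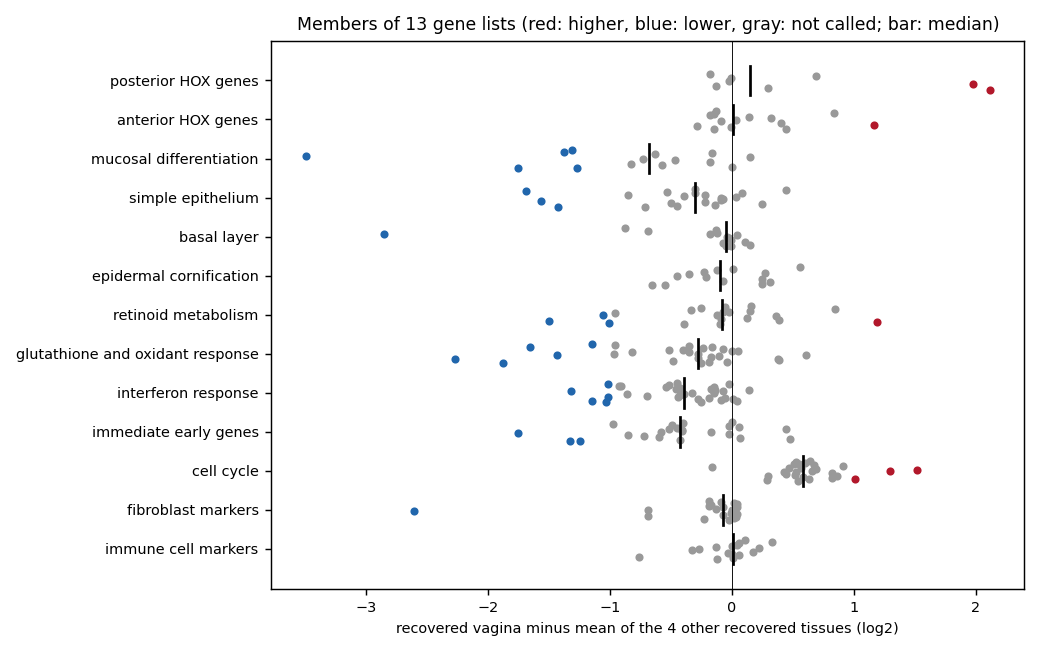
Difference between recovered vagina and the mean of the 4 other recovered tissues (log2) for each measured member of 13 gene lists, with genes called higher in red, called lower in blue, not called in gray, and a black bar at the list's median. The medians run from −0.68 for mucosal differentiation to 0.58 for cell cycle.

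Cell cycle genes lay higher as a list, with few members past the test. Of 27 measured genes 26 had a positive difference, 3 passed and the median was 0.58. Cdc6, which loads the replicative helicase, read 9.0 and 9.08 against 6.26 to 9.07 (1.52 ± 0.13). The cyclin genes Ccne1 (1.30 ± 0.06) and Ccne2 (1.01 ± 0.17) drive entry into S phase. Without foot pad their differences were 0.76 and 0.95, without trachea that of Ccne2 was 0.60, and Cdc6 (1.14) was the single call left, with a list median of 0.56. Ccne2 also lost its call without each of 3 single arrays, at 0.989 without vagina array 2, 0.983 without foot pad array 1 and 0.966 without trachea array 1. The mean level of the list was 9.71 and 9.72 on the vagina arrays against 8.58 to 9.65 on the others, and before transplantation it was 9.27 and 9.34 against 7.90 to 9.55. Orc1, a subunit of the origin recognition complex (1.49 ± 0.11), and Exo1, a repair exonuclease (1.54 ± 0.11), chosen after their values were seen, showed the pattern of Cdc6, with oesophagus at the vagina level.

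Interferon response genes lay lower, with 5 of 33 lower, none higher, 30 of 33 negative and a median of −0.39. Oas1k, an oligoadenylate synthetase, read 5.28 and 5.03 and was high in foot pad alone, at 10.33 and 10.70. Its difference of −1.32 became 0.03 without foot pad. Gbp2, an interferon-induced GTPase, differed by −1.15 (−0.89 without foot pad). The transcription factor Irf1 (−1.03) and the immunoproteasome subunits Psmb8 and Psmb9 (−1.02 each) were no longer past 2-fold without oral mucosa, at −0.63, −0.74 and −0.78. Without trachea Psmb8 and Psmb9 were at −0.87 and −0.93, and without foot pad Psmb9 was at −0.92. Single arrays ended these calls too, with Irf1 at −0.929 without vagina array 2, −0.987 without oral mucosa array 2 and −0.992 without trachea array 1, Psmb8 at −0.917 without vagina array 1 and −0.952 without oesophagus array 2, and Psmb9 at −0.881 without vagina array 2 and −0.997 without oesophagus array 1. None of the 5 differed from oesophagus beyond the test. Without foot pad 4 members were lower (Ifit2, Irf1, Ifi47, Psmb8). Il18, an inflammasome cytokine, read 4.76 and 4.42, below oral mucosa, foot pad and trachea and above oesophagus at 3.22 and 3.07 (−1.44 ± 0.16, −0.78 without oral mucosa, which ended the call). Before transplantation Il18 had been higher in vagina than in the mean of the others by 2.33. It was then level with trachea, vagina reading 7.79 and 7.93 and trachea 7.91 and 7.87.

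Glutathione and oxidant response genes were lower in 5 of 28 members, with none higher and a median of −0.28. The glutathione transferases Gsta4 (−2.27 ± 0.13), Mgst1 (−1.88 ± 0.11), Gstm1 (−1.66 ± 0.09) and Gstt2 (−1.44 ± 0.10) conjugate reactive compounds, and Nqo1 (−1.15 ± 0.09), level with oral mucosa, reduces quinones. Gsta4 read 5.39 and 5.93, below the 6.45 to 9.58 of all others. Mgst1 at 5.87 and 5.76 and Gstt2 at 6.85 and 7.16 were level with oesophagus. Gstm1 at 7.98 and 8.11 lay above foot pad at 7.60 and 7.59. Gstt2 lost its call without foot pad (−0.98), and Nqo1, named to complete the count, without foot pad (−0.88) or trachea (−0.99). Gstm genes are near-identical copies that may share probes. Gstm1 had been higher in vagina before transplantation (1.23), while Gsta4 (−1.12) and Mgst1 (−1.13) had been lower.

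Growth factor genes gave single members with large differences. Fst, the activin antagonist follistatin, read 10.96 and 10.95 against 8.15 to 10.47 (2.07 ± 0.11, limma adjusted p 6.09e-08) and was the one of 34 BMP and TGF-beta genes past the test. Oesophagus, at 10.38 and 10.47, stood next to vagina. Fgf13, an intracellular member of the FGF family, read 6.65 and 6.44 in vagina and 7.11 and 6.96 in oesophagus, against 3.51 to 4.44 in the other 3 tissues (1.85 ± 0.16). It had been lower in vagina before transplantation (−1.08). Igfbp3 read 5.98 and 5.92 against 6.24 to 9.22 (−1.71 ± 0.13). None of 40 Wnt and none of 22 Notch genes passed, with medians of −0.09 and −0.05.

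Of 20 retinoid genes 3 were lower and 1 higher. Beside Dhrs3 these were Crabp2, a retinoic acid carrier (−1.06), Aldh1a1, which makes retinoic acid (−1.01), and Cyp26b1, which breaks it down (1.19). Without trachea Crabp2 was at −0.85, and without vagina array 1 at −0.955. Aldh1a1 was at −0.42 without foot pad and −0.95 without trachea, and at −0.811 to −0.987 without each of 4 single arrays (vagina 1, oesophagus 1, foot pad 2, trachea 2). Cyp26b1 was at 0.84 without foot pad, which ended the call. Dhrs3 kept its call without any 1 of the 4 tissues, at −1.61 to −1.30.

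Among 33 transport genes Aqp9, a channel for water and glycerol, was higher (8.15 and 8.07 against 4.85 to 8.40, 1.69 ± 0.14) and level with oesophagus. The carbonic anhydrases Car2 (−1.36) and Car9 (−1.10), the potassium channel Kcnq1 (−1.09) and Clca2 (−1.07) were lower. Car2 was at −0.63 without oral mucosa and −0.85 without oesophagus, Car9 at −0.77 without oral mucosa and −0.93 without trachea, and Kcnq1 at −0.97 without trachea. Clca2, highest in foot pad, was at −0.75 without it. Among immediate early genes the nuclear receptors Nr4a1 (−1.76 ± 0.10) and Nr4a2 (−1.33 ± 0.16) and Fos (−1.25 ± 0.12) were 3 of 23 lower, with a median of −0.43. All 3 were highest in foot pad, and without it Nr4a1 (−1.29) was still past the test while Nr4a2 (−0.72) and Fos (−0.79) were not, with a median of −0.19. Without trachea Fos was at −0.96. Against oesophagus the differences of Nr4a1, Nr4a2 and Fos were −0.19, 0.14 and 0.57, none past the test. Aldoc (−1.46), Eno2 (−1.09) and Ddit4 (−1.0) were the 3 of 24 hypoxia and glycolysis genes that were lower. Aldoc and Eno2 were level with oesophagus, with differences of 0.12 and 0.03. Without foot pad Ddit4 was at −0.62 and Eno2 just under 2-fold. Ddit4 also lost its call without vagina array 1 (−0.940), oral mucosa array 2 (−0.989), trachea array 1 (−0.988) or foot pad array 2 (−0.998), and Eno2 without oral mucosa (−0.55).

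In 6 further lists every called member lost its call without foot pad. Il10, an anti-inflammatory cytokine, was at 8.78 and 8.81 in foot pad and 3.53 to 4.24 in all other recovered groups (−1.52, −0.30 without foot pad). Ptgs1, a cyclooxygenase (1.46, 0.45 without foot pad), Il33, an alarmin (1.49, 0.99), Tsc22d3, a glucocorticoid-induced gene (−1.14, −0.57), the class II chaperone subunit RT1-DMb (−1.27, −0.76), the tight junction gene Cldn1 (−1.08, −0.65) and Sgms2, a sphingomyelin synthase (−1.15, −0.99), gave the pairs of values shown with and without foot pad. Sgms2 was also at −0.89 without trachea.

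Apart from the HOX genes above, few genes listed for the genital tract or its hormones passed. Of 21 steroid hormone response genes Tsc22d3 was the one that passed. The estrogen receptor gene Esr1 read 4.80 and 5.07 in recovered vagina against 4.97 to 5.27 (−0.17, limma adjusted p 0.532), although it had been higher in vagina before transplantation by 1.65. The progesterone receptor gene Pgr read 3.29 and 3.26 (−0.18), under the level below which 40% of probe sets lie. None of 22 reproductive tract development genes and none of 17 glycogen genes passed, with medians of −0.03 and −0.06, although Tbx2 and Gbe1 were lower without foot pad.

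Other cell types were looked for as well, since EGFP sorting keeps all rat cells. Of 21 fibroblast markers Sparc alone passed, 14 were negative and 7 positive, and the median was −0.07. Among them Col1a1 (−0.02), Col3a1 (−0.07), Dcn (0.02) and Pdgfra (−0.01) lay at the level of the others. Before transplantation 4 of the 21 had been higher in vagina, and 7 were lower in the comparison of change. The mean level of this list was 5.94 and 5.96 in recovered vagina against 5.98 to 6.52, while before transplantation it was 7.03 and 7.12 against 5.88 to 7.23. Its part in the difference of Sparc was not tested. None of 16 immune, 14 endothelial, muscle, melanocyte and nerve, or 11 airway markers passed, and the mean levels of these lists in recovered vagina were 4.12 to 4.39. In sorted bulk cultures fewer cells of a type and less RNA per cell cannot be told apart. In all, 11 of the 35 lists had no member past the test.

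Called genes that are neighbors were counted in the order of the GRCr8 annotation, with no test and no expected number computed. Of the 220 called genes 70.9% were lower. Among 14480 placed genes 10 adjacent pairs passed in the same direction, all lower. They include Fads2 with Fads1, the keratins Krt13 with Krt15 and Krt15 with Krt19, the proteases Tmprss11b with Tmprss11f and Tmprss11f with Tmprss11g (−1.36 ± 0.15), and Psmb9 with RT1-DMb in the histocompatibility region. The remaining pairs were Trim63 with Slc30a2, Slc30a2 with Extl1, Lbh with Ypel5 and Bco2 with Il18. Trim63, Slc30a2 and Extl1 were at −0.19, −0.30 and −0.34 without foot pad, Bco2 and Ypel5 at −0.93 each, and Lbh and Ypel5 at −0.70 and −0.90 without trachea. Without vagina array 2 the calls of Trim63 (−0.904), Lbh (−0.923) and Extl1 (−0.976) ended, and without vagina array 1 that of Ypel5 (−0.938). Without foot pad array 2 Extl1 was at −0.967 and Lbh at −0.950, and Lbh was at −0.979 to −0.995 without oesophagus array 1, oral mucosa array 2 or trachea array 1. Medians of the 21 chromosomes with 100 or more genes lay between −0.06 and 0.02.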

How the data were processed

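The deposited table holds log2 values that the authors made with RMA in Affymetrix Expression Console from Affymetrix Rat Gene ST arrays, 1 value per probe set and array for 29215 probe sets on 20 arrays. RMA corrects background, brings arrays to 1 distribution and summarizes probes, so a shift of the whole transcriptome would be removed. The software versions, the annotation build and the arrays run together are not stated in the labels or methods, and detection calls were not used here. The number of arrays limits the precision. Through the platform annotation 15310 probe sets had 1 symbol, 323 several and 13582 none here, and 15279 gene IDs were found in RefSeq. Each symbol was represented by its brightest probe set (mean of all 20 arrays), which gave 14506.

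All 10 groups of 2 were fitted together with limma (3.58.1, with statmod 1.5.0, R 4.3.3) on all probe sets, with 10 residual and 3.64 prior degrees of freedom, contrasts of group means, and Benjamini-Hochberg adjustment over all probe sets. A gene was called at an adjusted p under 0.05 and a fold over 2, the thresholds of the study. Values after ± are standard errors of the fit. The genes named are the 2 proposed markers and up to 12 a direction called against the mean and against each of the 4 tissues. In each list up to 4 called members by size are named, and members of the posterior HOX and steroid hormone lists. Others are named as chosen after their values were seen or for a count. Of 8 sex-linked genes listed 1 was measured, and it did not pass. The fit was tested on simulated data. The comparison, its proposed markers and the 35 gene lists were chosen with earlier results of these data known. Alternatives were array centering, a filter on low values, other priors, a replicate term, other probe sets, a test against a 1.5-fold difference, and leaving out tissues or arrays. Promoters are from RefSeq tables of GRCr8.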

Additional observations from a re-analysis of the deposited data

Results flagged for a closer look

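For the genes named above, the change of vagina cells with transplantation was compared with the mean change of the other 4 tissues, and the following differed by over 2-fold at a limma adjusted p under 0.05. The values are log2 differences of change, and they share the recovered vagina arrays with the main comparison. Upward they were 3.08 for Cers4, 2.73 for Tmem47, 2.68 for Cpa4, 1.77 for Hoxd13, 1.7 for Sh3kbp1, 1.61 for Hoxa11 and 1.35 for Khdrbs3. Downward they were −4.5 for Myef2, −3.79 for Krt13, −3.05 for Fads1, −2.67 for Sparc, −2.43 for Fads2, −2.37 for Abcg3l3, −1.81 for Adm2, −1.68 for Igfbp2, −1.53 for Dhrs3 and −1.32 for Aim2. Krt13 also fell in oral mucosa and oesophagus, and the mean changes of Krt13 and Fads1 include a rise in foot pad.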

How the results depend on the processing

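The main counts of 64 higher and 156 lower were within 1.5 times under array centering, the low-value filter, the other priors, the other probe set and the 1.5-fold test. They were 166 and 256 without oesophagus and 239 and 289 against oral mucosa alone, which shares a title code with vagina. With tissue as the unit limma called 0 and 0. Without foot pad they were 46 and 123, of which 36 and 82 were among the main calls, a setting also fitted without those arrays, chosen after seeing the data. With a replicate block they were again 64 and 156, and the deviations of same-numbered arrays had an r over 0.1 in 3 of 45 pairs of groups (range −0.409 to 0.399), so the numbers were not taken to pair arrays. Leaving out 1 array gave 58 to 68 higher and 149 to 166 lower, 6 to 6 and 9 to 13 against each tissue, 100 to 111 and 31 to 49 before transplantation, and 59 to 66 and 252 to 337 for the change. Genes lower before were 25 with centered arrays. Among single genes, centering ended the calls of Aldh1a1, Crabp2, Ddit4, Extl1, Irf1, Lbh, Psmb8, Psmb9 and Ypel5, and the 1.5-fold test those of Aldh1a1, Ccne2, Cyp26b1, Extl1, Hoxa5, Irf1, Lbh, Oas1k, Psmb8, Psmb9, Slc30a2 and Trim63. The sign turned for Oas1k without foot pad (0.03), for Cers4 without trachea (−0.56) and against oral mucosa alone (−0.47), and against oral mucosa alone for Aldh1a1 (0.14) and Tspan8 (2.05). The causes were not tested. Centering moved the median of all genes from −0.02 to 0.05. Genes near 4.77 or below lie where arrays resolve differences poorly.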

Other observations

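Of 13905 probe sets with no symbol or several, 35 were higher and 30 lower in recovered vagina than in the mean of the 4 other recovered tissues, and 5 and 3 differed from each tissue. Of the 220 called genes 166 belonged to none of the 35 lists. Among them, chosen after their values were seen, were the transferrin receptor gene Tfrc (1.75), the platelet chemokine gene Ppbp (1.96) and the secreted matrix phosphoprotein gene Spp1 (−2.17, and −1.33 without foot pad).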
